A study of Mus musculus with 6 samples.

Results

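The genes described here are 9 enzymes of serine synthesis and folate one-carbon metabolism out of 11835 genes measured by RNA sequencing of C2C12 cells. They were chosen by name and function, with earlier results of these data known: Phgdh, Psat1 and Psph make serine, Shmt2, Mthfd2, Mthfd1l and Aldh1l2 carry one-carbon units in the mitochondrion, and Shmt1 and Mthfd1 do so in the cytosol. C2C12 is a mouse myoblast line that fuses into myotubes when the serum is reduced, and all 6 samples share that culture, grown with 10% fetal bovine serum and differentiated with 2% horse serum. The study asked what the loss of calponin 3, an actin-binding protein encoded by Cnn3, does to these cells, and its sequencing set 3 samples transfected with NC siRNA (siNC) against 3 transfected with CNN3 siRNA (siCNN3). All 6 come from the same line, and the labels give their cell type as mouse myotube, whereas the methods speak of differentiating myoblasts. The labels do not say whether the 3 samples of a group were separate cultures, so the p-values measure only the spread between these samples, which may be technical.

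Serine is made from an intermediate of glycolysis in 3 steps, by phosphoglycerate dehydrogenase (Phgdh), phosphoserine aminotransferase (Psat1) and phosphoserine phosphatase (Psph). Serine hydroxymethyltransferase then splits serine into glycine and a one-carbon unit that is bound to folate, with Shmt2 acting in the mitochondrion and Shmt1 in the cytosol. In the mitochondrion the unit is oxidized by Mthfd2 and either released as formate by Mthfd1l or oxidized to carbon dioxide by Aldh1l2, and in the cytosol the trifunctional Mthfd1 takes up formate. The units are used for purines, thymidylate and the methionine cycle. Many of these enzymes are known targets of ATF4, the transcription factor of the amino acid and integrated stress response.

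The mitochondrial and cytosolic enzymes are encoded by separate genes, and their reading frames show how the listed transcripts can be told apart. The coding sequence of Shmt2-201 has 504 codons and that of Shmt1-201 has 478, and over 470 aligned residues their translations were 64.0% identical. The first 34 codons of Shmt2-201 had no counterpart in Shmt1, and the 60 bases shown in capitals all lie within them. They lie on the minus strand of chromosome 10 of GRCm38, across an intron, within chr10:127521089-127522320. The first 60 bases of Shmt1-201 lie in 1 exon, on the minus strand at chr11:60806964-60807023. The start of Aldh1l2-201 is shown because the other listed transcript, Aldh1l2-206, begins 113 codons further in. It lies on the minus strand within chr10:83527438-83534014, also across an intron.
Shmt2-201: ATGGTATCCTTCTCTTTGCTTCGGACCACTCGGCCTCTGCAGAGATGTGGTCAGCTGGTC
Shmt1-201: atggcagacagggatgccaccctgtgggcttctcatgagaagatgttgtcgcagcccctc
Aldh1l2-201: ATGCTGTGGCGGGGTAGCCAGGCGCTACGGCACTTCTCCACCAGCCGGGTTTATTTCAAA

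Mthfd1l-201 and Mthfd1-201 were 62.5% identical over 909 aligned residues, and the first 65 codons of Mthfd1l-201 had no counterpart. Mthfd2-201 was 41.3% identical to Mthfd1-201 over 298 residues and 69.0% identical to Mthfd2l-201, the product of a close paralog, over 329. The second listed transcript of Shmt2, Shmt2-206, lacks 9 coding bases that begin at position 34 of the coding sequence of Shmt2-201 (chr10:127521107-127521115, capitals) and has none of its own.
Shmt2-201, positions around the 9 bases: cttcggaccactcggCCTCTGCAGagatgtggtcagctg

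The 6 libraries had total FPKM of 322621 to 355591, the lowest in siNC replicate 1, which also had the most transcripts listed at 0 (2131, against 978 to 1333 in the others). The targeted gene Cnn3 read 62.8, 61.4 and 62.8 FPKM in the siNC libraries and 19, 39.2 and 25.6 FPKM in the siCNN3 libraries, in the order of replicates 1, 2 and 3, which is the order used throughout. The siCNN3 values were all below the siNC values, with a log2 fold change of -1.19 ± 0.242 (SE, limma, adjusted p = 0.0669). Without siCNN3 replicate 2, the library with the most Cnn3 of its group, the change was -1.46 and passed the threshold of 0.05. Of the 11593 genes tested, 200 (1.73%) were higher in siCNN3 and 39 (0.336%) were lower at an adjusted p below 0.05. Quantile normalization gave 199 and 93. Without siNC replicate 3 the counts were 16 and 4, without siCNN3 replicate 1 they were 39 and 7, without siCNN3 replicate 2 they were 29 and 4, and without siCNN3 replicate 3 they were 444 and 161. Without siNC replicate 1 the higher count was 70, and without siNC replicate 2 the lower count was 20. Myoblast and myotube markers were present in both groups, and 8 of 18 tested were lower in siCNN3, among them Acta1 (log2 fold change -2.12, adjusted p = 0.00473), Mylpf (-1.88, adjusted p = 0.0099) and Tnnt1 (-1.71, adjusted p = 0.0332), which encode proteins of the contractile apparatus. Without siNC replicate 3 or siCNN3 replicate 2 that count was 1, without siCNN3 replicate 1 it was 2, without siNC replicate 1 it was 5, and with a filter at 5 FPKM it was 4. The median log2 fold change of the 18 markers was -0.98, with 17 below 0. Only Myf5, a myoblast marker, was above 0 (0.88, limma adjusted p = 0.238), and its groups overlapped. The summed level of the list was 226 to 280 FPKM in siNC and 138 to 151 FPKM in siCNN3. The defining markers Actc1, Myh8 and Pax7 were not among the listed genes. In a bulk sample, fewer cells of a type and less RNA per cell cannot be told apart. Of 17 markers of blood, immune, endothelial and fat cells, 6 were listed, with a summed level of 183 to 499 FPKM in siNC and 40.7 to 55.6 FPKM in siCNN3. Hbb-bs (log2 fold change -3.27, adjusted p = 0.0264), Hbb-bt (-2.56, adjusted p = 0.0495) and Fabp4 (-1.45, adjusted p = 0.0152) were lower in siCNN3 (0 of the 6 without siNC replicate 1 or 3 or siCNN3 replicate 1 or 2), and Ptprc, Adgre1, Pecam1 and Adipoq, which define leukocytes, macrophages, endothelium and fat cells, were not listed. The part of these differences in the levels of the enzymes was not tested.

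The mean of all 9 enzymes was higher in siCNN3 than in siNC, with the greatest ratios for Aldh1l2 (4.18), Mthfd2 (3.69), Shmt2 (3.42) and Phgdh (3.36) and the smallest for Mthfd1 (1.27). Only Aldh1l2 passed the adjusted threshold, which is 1 of 9 enzymes against 1.73% of all tested genes, and 0 of 9 were lower in limma against 0.336%. At an unadjusted p below 0.05, 7 of 9 were higher and 0 lower, and of all tested genes 9.94% were higher and 6.14% lower. The 3 siCNN3 libraries were all above the 3 siNC libraries for the same 7 enzymes, all but the cytosolic Shmt1 and Mthfd1, against 13.8% of all tested genes. They were all below for 0 of 9, against 9.35%. The median log2 fold change was 1.49 for the 9 enzymes and 0.03 for all tested genes, and 1.79% of all tested genes had a fold change at or above the median of the enzymes. Each of the 9 was lowest among the siCNN3 libraries in replicate 3.

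**Figure D1:**
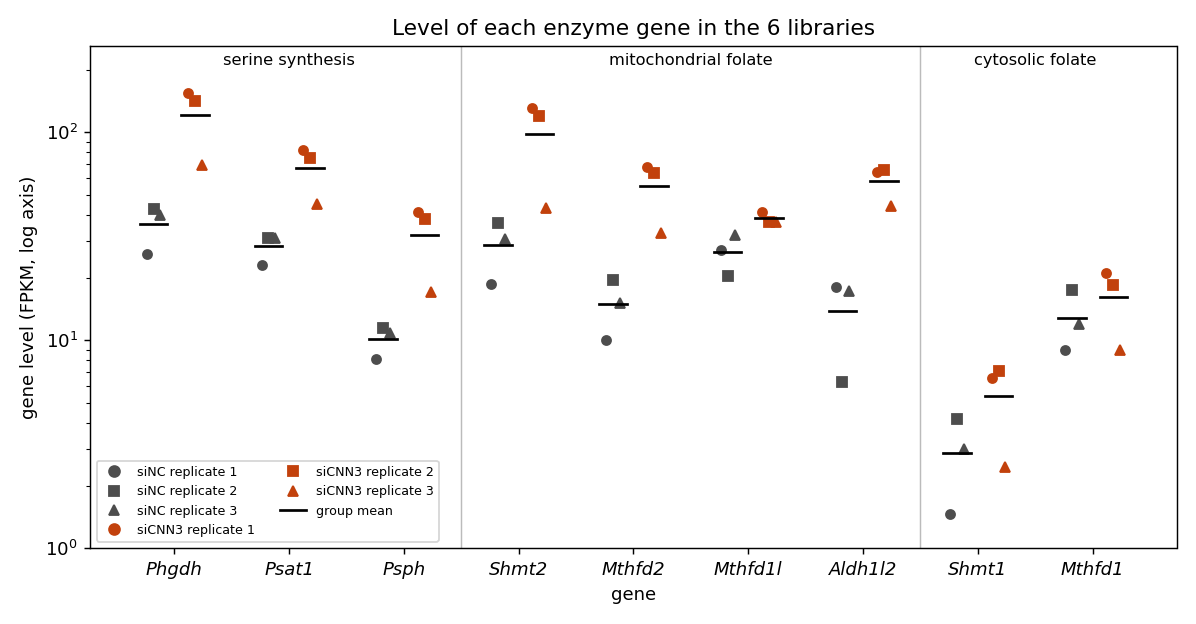
Each point is the FPKM of a gene in 1 library, on a log axis, for the 3 siNC (grey) and 3 siCNN3 (orange) libraries, and lines are group means. The orange triangles of siCNN3 replicate 3 are the lowest siCNN3 points of all 9 genes, and for Shmt1 and Mthfd1 they lie among the siNC points.

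Phgdh catalyses the first step from glycolysis to serine and had the highest level per length of the 9 genes in both groups. Its siNC libraries read 25.9, 42.6 and 40.1 FPKM and its siCNN3 libraries 154, 141 and 69.6 FPKM. The groups did not overlap, but siCNN3 replicate 3 was 1.92 times the siNC mean, whereas replicate 1 was 4.25 times it. The log2 fold change was 1.67 ± 0.333 (SE, n = 3 per group, limma, adjusted p = 0.0629).

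Psat1, the aminotransferase of the second step, read 23.1, 31.0 and 30.9 FPKM with NC siRNA and 82.5, 75.0 and 45.4 FPKM with CNN3 siRNA. Its siCNN3 libraries were 1.6 to 2.91 times the siNC mean, for a log2 fold change of 1.19 ± 0.245 (SE, limma, adjusted p = 0.0678).

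Psph releases serine from phosphoserine and was the lowest of the serine synthesis genes. The siNC libraries gave 8.11, 11.4 and 10.9 FPKM and the siCNN3 libraries 41.2, 38.5 and 17.0 FPKM, again without overlap. On the log2 scale the fold change was 1.49 ± 0.336 (SE, limma, adjusted p = 0.0846). Of its 4 listed transcripts, the full-length Psph-201 gave 3.39, 9.92 and 8.76 FPKM with NC siRNA and 37.6, 33.3 and 16.0 FPKM with CNN3 siRNA. The shorter Psph-202 was given 3.4 FPKM in siNC replicate 1, as much as Psph-201 there, and was listed at 0 in siNC replicates 2 and 3.

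The 3 genes of serine synthesis ranked the libraries alike, each lowest in siNC replicate 1 and highest in siCNN3 replicate 1. Their summed level averaged 74.7 ± 15.3 FPKM for siNC and 221 ± 78.3 FPKM for siCNN3 (SD, n = 3). The ratio of Phgdh to Psph was 3.19, 3.73 and 3.69 in siNC and 3.74, 3.67 and 4.09 in siCNN3, so its groups overlapped. The ratio of Phgdh to Psat1 was 1.12, 1.38 and 1.3 in siNC and 1.87, 1.88 and 1.53 in siCNN3, and its groups did not overlap. These ratios were chosen after the levels were seen and are given without a test.

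Shmt2 makes glycine and the folate-bound one-carbon unit in the mitochondrion. Its siNC libraries read 18.6, 36.7 and 30.8 FPKM, and its siCNN3 libraries read 131, 120 and 43.3 FPKM. The lowest siCNN3 library stood only 1.18 times above the highest siNC library, and Shmt2 had the widest spread in siCNN3 of the 9 genes, with a coefficient of variation of 48.7%. Its log2 fold change was 1.64 ± 0.451 (SE, limma, adjusted p = 0.134). Shmt2-201 held 70.5% of the gene's mean level in siNC and 77.9% in siCNN3, and Shmt2-206, the form without the 9 bases shown above, held the rest.

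Mthfd2 oxidizes the mitochondrial one-carbon unit and is known to be high in embryonic and dividing cells. With NC siRNA it read 10.0, 19.6 and 15.1 FPKM, and with CNN3 siRNA 68.3, 63.5 and 32.9 FPKM. The groups were apart, with the lowest siCNN3 library at 1.68 times the highest siNC library. Its log2 fold change was 1.79 ± 0.335 (SE, limma, adjusted p = 0.0519), just outside the threshold. Against its paralog Mthfd2l, which overlapped between the groups, Mthfd2 stood at ratios of 1.54, 4.2 and 3.42 in siNC and of 12.2, 15 and 8.5 in siCNN3.

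Mthfd1l, the mitochondrial formate-releasing enzyme, had the smallest fold change of the mitochondrial genes. The siNC libraries read 27.3, 20.5 and 32.0 FPKM, and the siCNN3 libraries 41.6, 37.1 and 36.9 FPKM. The siCNN3 libraries lay close together and above all siNC libraries, and the log2 fold change was 0.54 ± 0.175 (SE, limma, adjusted p = 0.194). Both listed transcripts encode the same 977 residues, and Mthfd1l-201 held 61.3% of the level in siNC and 65.2% in siCNN3.

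Aldh1l2, which oxidizes the mitochondrial formyl unit to carbon dioxide with production of NADPH, was the only one of the 9 that rose past the threshold. Its siNC libraries read 18.1, 6.28 and 17.2 FPKM, against 64.4, 65.5 and 44.2 FPKM in the siCNN3 libraries. The low value was that of siNC replicate 2, the library in which 7 of the other enzymes were highest, except Mthfd1l, and even the lowest siCNN3 library was 2.44 times the highest siNC library. Aldh1l2 had a log2 fold change of 2.09 ± 0.386 (SE, limma, adjusted p = 0.0499), with a 95% interval of 1.18 to 3.01. This call sat at the threshold and was lost when siNC replicate 1 or 3 or siCNN3 replicate 1 or 2 was left out (adjusted p in limma of 0.027 to 0.191 over the 6 libraries left out in turn). It held without siNC replicate 2 and without siCNN3 replicate 3. Aldh1l2-201 held 96.3% of the level in siNC and 96.8% in siCNN3.

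The cytosolic enzymes did not separate the groups. Shmt1 was the lowest of the 9 genes in both groups, with 1.45, 4.17 and 3.02 FPKM under NC siRNA and 6.62, 7.08 and 2.45 FPKM under CNN3 siRNA. Its siCNN3 replicate 3 lay below siNC replicates 2 and 3, and the log2 fold change was 0.69 ± 0.406 (SE, limma, adjusted p = 0.457), with a 95% interval of -0.28 to 1.65. Mthfd1, which carries 3 activities of the cytosolic pathway in 1 protein, gave 8.93, 17.5 and 11.9 FPKM under NC siRNA and 21.1, 18.5 and 9.0 FPKM under CNN3 siRNA. Its values in siNC replicate 1 and siCNN3 replicate 3 were nearly equal. For Mthfd1 the log2 fold change was 0.29 ± 0.353 (SE, limma, adjusted p = 0.737), with a 95% interval of -0.55 to 1.12.

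**Figure D2:**
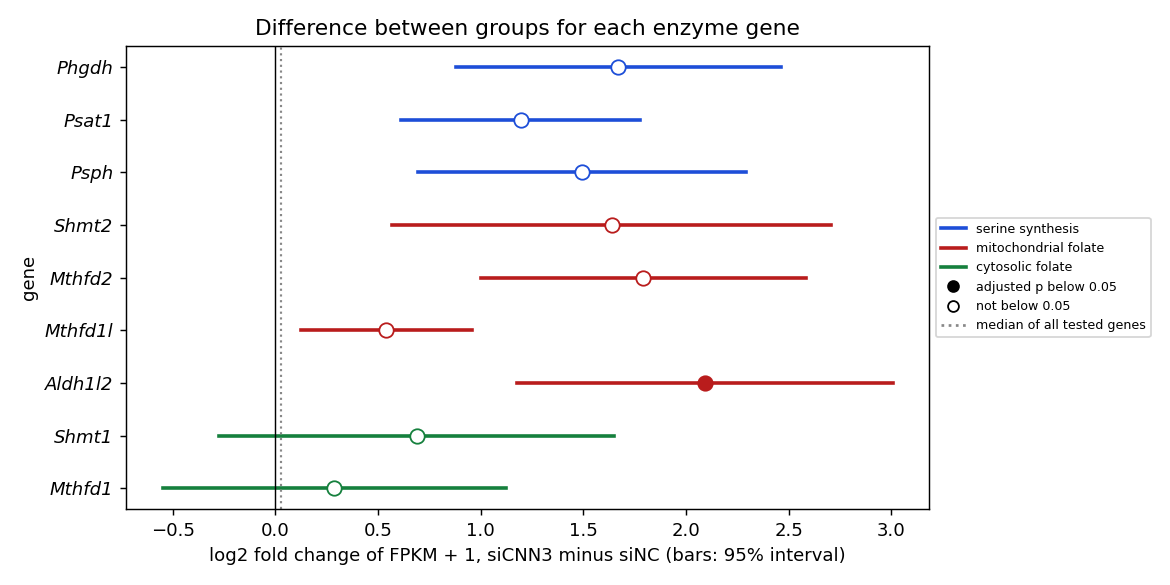
Points are log2 fold changes of FPKM + 1 between siCNN3 and siNC (n = 3 each) and bars are 95% intervals of the limma fit. The intervals of the 7 serine synthesis and mitochondrial genes lie above 0, those of Shmt1 and Mthfd1 include 0, and only the Aldh1l2 point is filled for an adjusted p below 0.05.

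By mean FPKM the siNC order ran from Phgdh (36.2) through Shmt2 (28.7), Psat1 (28.3), Mthfd1l (26.6), Mthfd2 (14.9), Aldh1l2 (13.9), Mthfd1 (12.8) and Psph (10.1) to Shmt1 (2.88). Among neighbours in that order, the ranges over the 3 libraries were separate only between Mthfd1l and Mthfd2 and between Psph and Shmt1. In siCNN3 the order was Phgdh (122), Shmt2 (98.2), Psat1 (67.6), Aldh1l2 (58.0), Mthfd2 (54.9), Mthfd1l (38.5), Psph (32.2), Mthfd1 (16.2) and Shmt1 (5.38), and only Mthfd1 and Shmt1 had separate ranges. Mthfd1l was thus level with Shmt2 in siNC and had a mean well below it in siCNN3, although in siCNN3 replicate 3 it was at 36.9 FPKM and Shmt2 at 43.3 FPKM.

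The compartments were also set against each other within each library. On the log2(FPKM + 1) scale a factor shared by all enzymes is not fully removed, because Shmt1 is low. The 4 mitochondrial genes exceeded the 2 cytosolic genes in mean log2(FPKM + 1) by 1.91, 0.93 and 1.71 with NC siRNA and by 2.45, 2.41 and 2.77 with CNN3 siRNA. All 3 siCNN3 libraries were above all 3 siNC libraries, and the difference between the group means was 1.03 (0.74 to 1.22 with each library left out). In siCNN3 replicate 3, where every enzyme was lowest within siCNN3, this excess was the highest of the 6. The summed level of the mitochondrial genes averaged 84.0 ± 10.5 FPKM for siNC and 249.7 ± 80.6 FPKM for siCNN3 (SD, n = 3), and that of the cytosolic genes 15.7 ± 5.67 and 21.6 ± 8.84 FPKM.

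The ratio of Shmt2 to Shmt1, the same reaction in 2 compartments, was 12.8, 8.82 and 10.2 in siNC and 19.8, 17.0 and 17.7 in siCNN3. The groups were apart, with means of 10.6 ± 2.02 and 18.2 ± 1.48 (SD, n = 3). The ratio of Mthfd2 to Mthfd1 was 1.12, 1.12 and 1.26 in siNC and 3.23, 3.44 and 3.65 in siCNN3. Both genes were lowest of the siCNN3 group in replicate 3, where their ratio was the highest, and its means were 1.17 ± 0.0828 and 3.44 ± 0.209. With Mthfd2-201 and Mthfd1-201 alone it was 1.24 ± 0.0518 in siNC and 3.5 ± 0.226 in siCNN3. The ratio of Mthfd1l to Mthfd1, in contrast, was 3.05, 1.17 and 2.68 in siNC and 1.97, 2.01 and 4.1 in siCNN3, and its groups overlapped. The ratios with Mthfd1 were chosen after the levels were seen, and no ratio was tested.

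**Figure D3:**
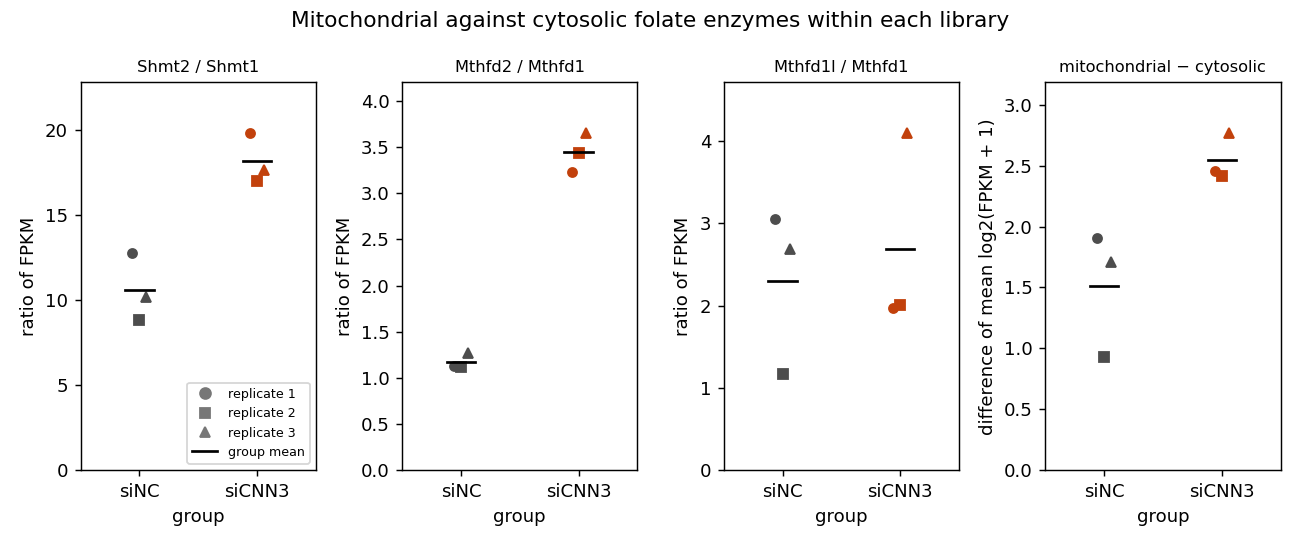
Points are ratios of FPKM between a mitochondrial and a cytosolic enzyme in each library, and in the last panel the difference of their mean log2(FPKM + 1), with lines at group means (n = 3). The Mthfd2 to Mthfd1 ratio lies between 1.12 and 1.26 in siNC and between 3.23 and 3.65 in siCNN3, whereas the Mthfd1l to Mthfd1 ratio overlaps between the groups.

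Leaving out siCNN3 replicate 3 changed the count of enzymes past the threshold the most. Without it, 6 of 9 enzymes were higher at an adjusted p below 0.05, namely Phgdh, Psat1, Psph, Shmt2, Mthfd2 and Aldh1l2, against 3.83% of the tested genes in that fit, and their adjusted p in limma lay between 0.0049 (Psph) and 0.0452 (Aldh1l2). Leaving out any other library gave 0 or 1 enzymes past it. The fitted fold change of each of the 9 stayed above 0 whichever library was left out. On the log2 scale it ranged from 1.45 to 2.03 for Phgdh, from 0.39 (without siNC replicate 1) to 1.08 (without siCNN3 replicate 3) for Shmt1, and from 0.07 (without siCNN3 replicate 1) to 0.64 (without siCNN3 replicate 3) for Mthfd1.

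**Figure D4:**
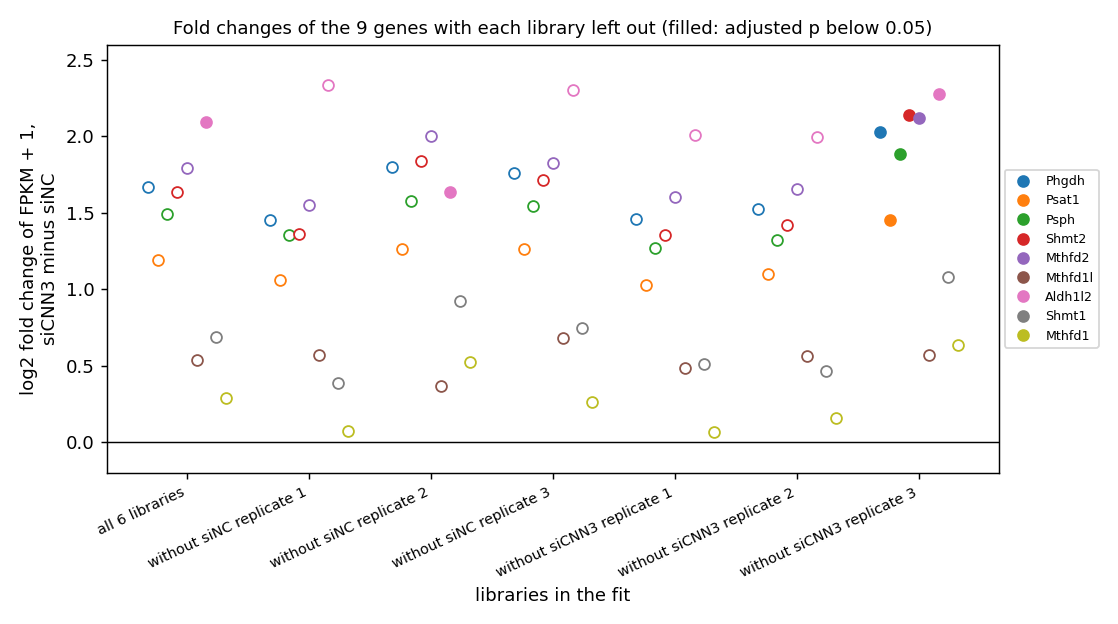
Points are log2 fold changes of FPKM + 1 (siCNN3 minus siNC) of the 9 genes with all 6 libraries and with each library left out, filled where the adjusted p was below 0.05. All points lie above 0, and 6 are filled without siCNN3 replicate 3, against 1 with all libraries.

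The other genes of folate metabolism were centred near the median of all genes. Of 18 tested, 0 were called higher and 0 lower in limma (2 higher and 1 lower at an unadjusted p below 0.05, with 9.94% of all tested genes higher and 6.14% lower), 3 had all siCNN3 libraries above all siNC libraries against 13.8% of all tested genes, and their median log2 fold change was 0.05. The lowest unadjusted p belonged to Slc19a1, the reduced folate carrier of the plasma membrane (5.79 ± 0.466 FPKM in siNC and 10.2 ± 1.86 in siCNN3, SD, n = 3, limma adjusted p = 0.092), and to Mtrr, which reactivates methionine synthase (3.2 ± 0.387 and 5.05 ± 1.05 FPKM, limma adjusted p = 0.216). Without siCNN3 replicate 3, 1 of these folate genes was called higher. Transporters and users of serine and glycine numbered 15, with 0 called in limma (4 higher and 1 lower at an unadjusted p below 0.05, with 9.94% of all tested genes higher and 6.14% lower). The count called higher was 4 without siCNN3 replicate 3, where 3.83% of all tested genes were, 2 with median-of-ratios scaling, and 1 with quantile normalization or a filter at 5 FPKM. In 4 of the 15 all siCNN3 libraries were above all siNC libraries, against 13.8% of all tested genes. The median log2 fold change of the 15 was -0.0035, with 7 genes above 0 and 8 below. Among the 15, Cth, which makes cysteine from cystathionine, had a log2 fold change of 2.18 (limma adjusted p = 0.0506) and Slc1a4, a carrier of serine and other neutral amino acids, one of 0.94 (limma adjusted p = 0.0629).

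The pathways that use the one-carbon units had median fold changes close to that of all genes. None of 12 methionine cycle genes and none of 17 genes of purine and thymidylate synthesis passed the threshold in limma (1 and 1 higher and 0 lower at an unadjusted p below 0.05, with 9.94% of all tested genes higher and 6.14% lower, and 1 purine or thymidylate gene called higher without siCNN3 replicate 3), and their median log2 fold changes were 0.14 and 0.13. All siCNN3 libraries were above all siNC libraries for 4 of 12 and 2 of 17, against 13.8% of all tested genes, and all below for 1 of the 12, against 9.35%. The methionine cycle genes with the lowest unadjusted p were Nnmt, which methylates nicotinamide (0.664 ± 0.314 FPKM in siNC and 1.88 ± 0.717 in siCNN3), and Pemt, which methylates phosphatidylethanolamine (1.08 ± 0.915 and 2.4 ± 0.558 FPKM). In purine synthesis they were Prps1, which makes the ribose phosphate donor (17.8 ± 0.817 and 26.4 ± 3.66 FPKM, limma adjusted p = 0.121), and Adss (39.8 ± 2.95 and 46.6 ± 1.24 FPKM, limma adjusted p = 0.36).

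ATF4 and its other known targets were set beside the enzymes, many of which are known targets too. Of 26 tested, 13 rose and 0 fell at an adjusted p below 0.05, against 1.73% and 0.336% of all tested genes, 24 had all siCNN3 libraries above all siNC libraries against 13.8%, and their median log2 fold change was 1.40. The count that rose was 7, 8 and 1 without siNC replicates 1, 2 and 3 and 5, 5 and 24 without siCNN3 replicates 1, 2 and 3. Atf4 itself rose by 1.03 (limma adjusted p = 0.0427). The largest called changes were those of Trib3, a pseudokinase that dampens this response (2.91, limma adjusted p = 0.0144), Chac1, which degrades glutathione (2.79, adjusted p = 0.00473), and Nupr1, a stress-induced nuclear protein (2.79, adjusted p = 0.0099). Relative to the siNC mean, the mean log2 level of this list was 1.74, 1.64 and 1.19 in siCNN3 replicates 1, 2 and 3, compared with 1.85, 1.73 and 0.78 for the serine synthesis genes and 1.82, 1.73 and 0.99 for the mitochondrial folate genes. Within siCNN3 the listed genes did not all rank the libraries alike. Nupr1 read 315, 208 and 374 FPKM, highest in replicate 3, whereas Atf4, Trib3 and Chac1 were lowest there. Cth belongs to this list and to that of serine use. The part of ATF4 in the levels of the enzymes was not tested.

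The cytosolic genes are set beside the proliferation markers, since several of these enzymes are known to be high in dividing cells. Relative to the siNC mean, Shmt1 and Mthfd1 together were at -0.51, 0.48 and 0.03 in siNC replicates 1, 2 and 3 and at 0.89, 0.84 and -0.26 in siCNN3. Markers of proliferation were at -0.48, 0.41 and 0.07 and at 0.51, 0.41 and -0.32 in the same libraries. In both, siNC replicate 1 was the lowest library, siCNN3 replicate 3 the next and siCNN3 replicate 1 the highest. The same held for purine and thymidylate synthesis, at -0.23, 0.20 and 0.03 in siNC and 0.27, 0.26 and -0.21 in siCNN3. That list holds Rrm1, Rrm2, Tk1 and Dut, which are themselves known to rise in dividing cells. Other lists shared part of this order. siNC replicate 1 was lowest and siCNN3 replicate 3 next for the methionine cycle (-0.22 and 0.07) and the other folate genes (-0.14 and -0.05). Of the 18 proliferation markers 0 passed the threshold in limma and 0 had an unadjusted p below 0.05, their median log2 fold change was 0.17, and the 2 with the lowest unadjusted p were Mcm6, a subunit of the replicative helicase (31.9 ± 9.52 and 53.0 ± 21.9 FPKM, limma adjusted p = 0.427), and Ccne1, cyclin E (6.69 ± 1.55 and 9.88 ± 3.57 FPKM, limma adjusted p = 0.499). The part of proliferation in the levels of the enzymes was not tested.

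**Figure D5:**
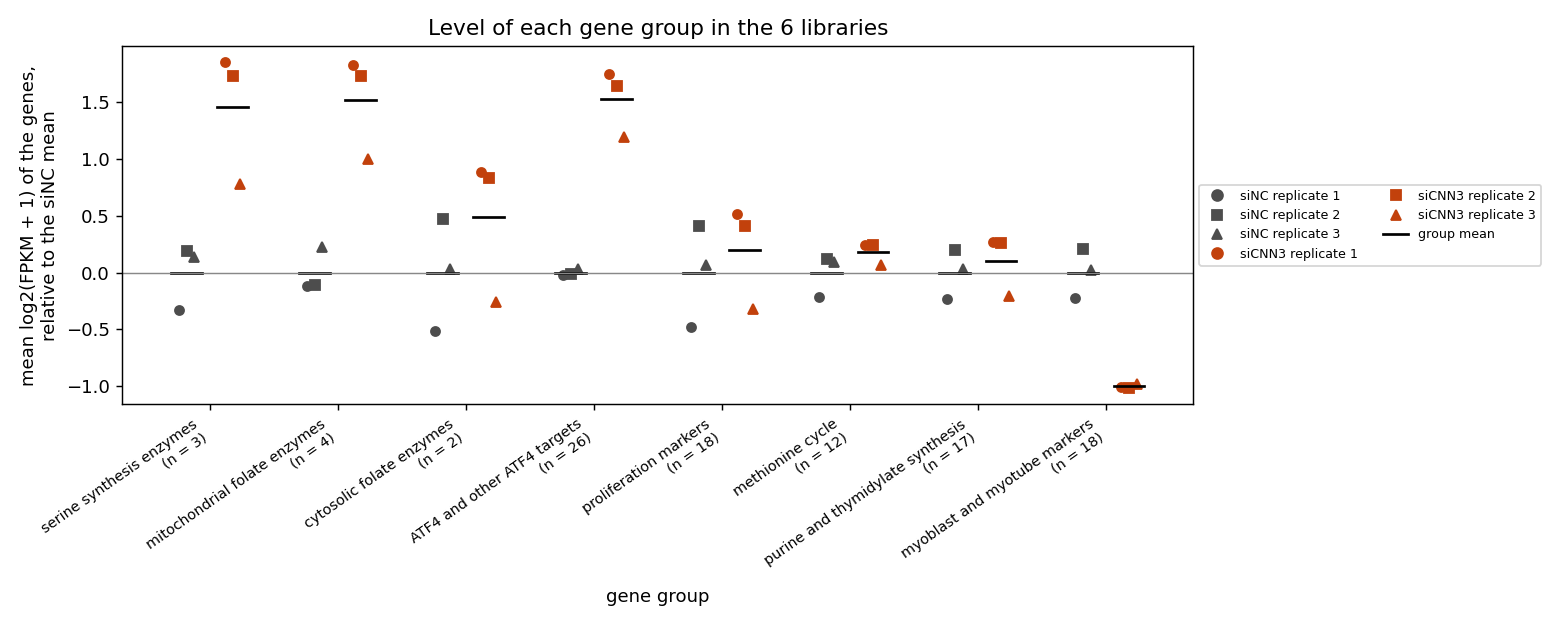
Points are the mean log2(FPKM + 1) of each gene group in 1 library relative to the siNC mean, and lines are group means. The serine synthesis, mitochondrial folate and ATF4 groups lie 0.78 or more above the siNC mean in every siCNN3 library, and the cytosolic folate genes and the proliferation markers have siCNN3 replicate 3 below it.

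Of 20 genes of the interferon response, 14 rose and 0 fell, against 1.73% and 0.336% of all tested genes, with a median log2 fold change of 4.09 (7 rose without siNC replicate 1, 1 without siNC replicate 3, 3 without siCNN3 replicate 1 and 2 without siCNN3 replicate 2). Its leading genes were Cxcl10 (6.3, limma adjusted p = 0.0152), Ifit3 (5.88, adjusted p = 0.0491) and Ccl5 (5.41, adjusted p = 0.00354), which are made in cells that sense virus or double-stranded RNA. Its mean log2 level relative to the siNC mean was -1.13, 1.25 and -0.12 in the siNC libraries and 4.33, 4.61 and 3.53 in siCNN3, so siCNN3 replicate 3 was again the lowest of its group. The part of this response in the levels of the enzymes was not tested.

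The genes whose profile over the 6 libraries was nearest to that of Aldh1l2, the enzyme with the greatest fold change, were Usp17la, Pstpip1, Atf3, Il15 and Gm4027, with Euclidean distances of 0.955 to 1.11 between centred log2(FPKM + 1) profiles. Atf3, a stress-induced transcription factor of the ATF4 list, averaged 8.43 ± 1.8 FPKM with NC siRNA and 37.4 ± 7.54 FPKM with CNN3 siRNA (SD, n = 3). Within siCNN3, Atf3 read 32.2, 34.0 and 46.0 FPKM, highest in replicate 3, where Aldh1l2 was lowest. The other enzymes were further away, from 1.63 for Psph to 2.83 for Mthfd1. This order describes 6 libraries in 2 groups.

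The promoters of the enzymes were read from RefSeq windows on GRCm38.p6 that run from 250 bases before to 50 bases after the start of transcription, which were given for 8 of the 9 genes (not Aldh1l2). The motif TGATGNAA, the core of the element bound by C/EBP and ATF factors, was searched on both strands and occurred in the windows of 4.51% of 27025 genes. None of the 8 enzymes had it, which says only that these letters are not in these windows. Of the 24 genes of the ATF4 list with a window, 10 had it. Its matches in Nupr1 (minus strand, chr7:126625562-126625591), Chac1 (plus strand, chr2:119351038-119351067) and Asns, asparagine synthetase (minus strand, chr6:7693214-7693243), are shown in capitals to set beside the windows of the enzymes. Trib3, also named by rule, had a match after the start, beginning at position 14, and is not shown because those bases are transcribed. Asns was shown in its place after the matches were seen. Those of Nupr1 and Chac1 read on the opposite strand, and their first bases lie at -110, -193 and, for Asns, -23 from the start.
Nupr1: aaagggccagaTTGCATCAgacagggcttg
Chac1: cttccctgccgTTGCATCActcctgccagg
Asns: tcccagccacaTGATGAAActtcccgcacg

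The 100 bases before the start are shown for Phgdh (minus strand, chr3:98339970-98340069), Psat1 (minus strand, chr19:15925060-15925159) and Mthfd2 (minus strand, chr6:83317605-83317704), which stand for both branches of the pathway. The last bases of the Phgdh stretch lie within the first exon of the GENCODE transcript. Psat1 has a second window, further downstream, which is not shown. Capitals mark CCAAT, the core of the box bound by NF-Y, read on either strand (ATTGG on the opposite one). This motif was chosen after the sequences were seen, and a match is a description, not a site.
Phgdh: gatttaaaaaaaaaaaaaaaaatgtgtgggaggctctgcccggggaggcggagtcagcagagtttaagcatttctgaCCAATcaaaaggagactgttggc
Psat1: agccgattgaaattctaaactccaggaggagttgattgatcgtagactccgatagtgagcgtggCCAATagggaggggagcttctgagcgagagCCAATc
Mthfd2: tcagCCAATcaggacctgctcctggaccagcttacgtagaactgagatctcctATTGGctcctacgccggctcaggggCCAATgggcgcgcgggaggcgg

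In these 100 bases 6 of 8 enzymes had at least 1 CCAAT, against 21.6% of 27025 genes, and 3 of 8 had 2 or more, against 4.2%. Mthfd2 had 3, Psat1 (in the window shown, with 0 in its other window) and Psph had 2, and Phgdh, Shmt1 and Mthfd1 had 1. Shmt2 and Mthfd1l had 0. For Psat1, Psph, Mthfd2 and Shmt1 the counted bases lie inside the gene as GENCODE annotates it, since transcripts with starts further upstream are annotated, among them the listed Psph-201 and Mthfd2-207. The CCAAT of Phgdh lies partly within the first exon of Phgdh-201. The motif was present before Phgdh, Psat1, Psph and Mthfd2, whose groups were apart, and before Shmt1 and Mthfd1, whose groups overlapped. It was absent before Shmt2 and Mthfd1l, whose groups were apart. The part of this motif in the levels of the enzymes was not tested. The GC content of the windows was 42.7% to 66.7%, around the median of 52.7% of all windows, and Shmt2 had the lowest.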

How the data were processed

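RNA of 3 siNC and 3 siCNN3 samples of C2C12 cells was analysed, with groups and replicate numbers taken from the sample titles. The authors deposited FPKM values (fragments scaled by transcript length and by the number of mapped fragments) for 24023 Ensembl transcripts. The submitters' processing notes name Bowtie 0.12.2 and the builds mm8 and mm10, and the program that estimated the values is not given in the sources used here. Read numbers are not given either, so the depth is unknown and no counting error can be stated. Transcript identifiers were matched without their version to GENCODE annotation of GRCm38 (23949 matched, 74 did not), and FPKM were summed for 11835 genes.

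The 11593 genes whose average reached 0.5 FPKM were tested. Their log2(FPKM + 1) values entered limma 3.58.1 under R 4.3.3 (moderated statistics, trended prior variance, two-sided, Benjamini-Hochberg adjustment, threshold 0.05). A fold change on this scale understates the change of low genes. The fit was tested on simulated data. An exact permutation test of 3 against 3 cannot go below 0.1, so none was used. The members and the gene lists were chosen with earlier results of these data known, and no list was given a test. All 9 members were named. From each list, up to 3 genes past the threshold with the greatest change were named, or, with none past it, the 2 with the lowest unadjusted p. Genes like the leading member were the 5 nearest in centred log2(FPKM + 1) profile. Translations of GENCODE coding sequences were aligned with Biopython 1.88 (BLOSUM62), and promoter windows came from RefSeq on GRCm38.p6. Alternatives were limma without a trend, single transcripts, quantile normalization, median-of-ratios scaling, a pseudocount of 0.1, a filter at 5 FPKM or none, each library left out in turn, and a replicate block.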

Additional observations from a re-analysis of the deposited data

How the results depend on the processing

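The count of enzymes past the adjusted threshold depended on the processing, while the gene-level fold change of all 9 stayed above 0 under every alternative that tested them. With a pseudocount of 0.1, no filter or limma without a trend 0 of 9 were higher (adjusted p of Aldh1l2 in limma 0.0569, 0.0519 and 0.0602), with a filter at 5 FPKM 2 were (Mthfd2 and Aldh1l2, with Shmt1 not tested, so that the difference between compartments had no value), and with median-of-ratios scaling or quantile normalization 1 was (Mthfd2 in place of Aldh1l2). Over all tested genes, 1.61%, 1.49% and 1.41% were called higher with the pseudocount of 0.1, no filter and no trend. The share was 2.33% with the filter at 5 FPKM, 1.88% with median-of-ratios scaling and 1.72% with quantile normalization. Over all genes, 63 and 93 were called lower with these scalings. Leaving out each library gave 0 to 6 enzymes, 16 to 444 genes higher and 4 to 161 genes lower. Where 1 library was left out, its group kept 2. With the replicate block 0 enzymes were called, and over all genes 62 (0.535%) were higher and 6 (0.0518%) lower. The deviations of samples with the same number correlated at -0.28, 0.31 and -0.02, and those with different numbers at -0.45 to 0.44. Deviations centred within groups of 3 cannot settle whether the numbers pair the samples. Single transcripts gave 0 enzyme transcripts past the threshold, where 100 of all 21658 tested transcripts were called higher and 17 lower. Of the enzyme transcripts, Mthfd1-207 (-0.38) and Psph-202 (-0.25) had log2 fold changes below 0. The cause of these changes was not tested. The depth is unknown, so the precision of low values such as those of Shmt1 could not be judged.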
